A study of Mus musculus with 4 samples.

Results

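Dendritic cells were selected from single-cell libraries of mouse pancreatic tumours (pancreatic ductal adenocarcinoma), 4 in all and 1 per group, made with 10x droplets. A barcode, the tag of 1 droplet, was a member when it held at least 500 unique transcripts (UMIs), at least 300 genes and at most 20% mitochondrial UMIs, and passed 4 limits on raw UMIs. The class II antigen presentation genes H2-Aa, H2-Ab1 and H2-Eb1 summed to at least 50 per 10000 UMIs. Flt3, Cd209a, Xcr1, Clec9a and Ccr7 summed to at least 2, the complement genes C1qa, C1qb and C1qc to at most 2, and the T cell receptor complex genes Cd3d, Cd3e and Cd3g to 0. Of 56375 barcodes, 334 were members: 308 in the library of tumours given gemcitabine (G), 5 in that of all 3 drugs (GPH), 12 in that of paricalcitol and hydroxychloroquine (PH) and 9 in the control library, whose mice received PBS. Each library pooled about 1 g of tumour from 3 animals, cut up and digested with enzymes. The treatment label of GPH ends after gemcitabine at 60 mg per kg, so the group was taken from the title, and age, strain and tumour model are not given in the sources used here. Without replicates no test was possible, and no p-value is given. Intervals in the text cover counting error only and say nothing of the spread between animals. Those of levels and ratios also leave out the spread of UMIs between barcodes.

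Conventional dendritic cells develop from Flt3-dependent precursors, take up antigen and present it to T cells. Type 1 cells (cDC1) carry the chemokine receptor Xcr1 and the dead-cell receptor Clec9a, depend on Irf8 and Batf3, and are known for cross-presenting tumour antigen to CD8 T cells. Type 2 cells (cDC2) carry lectins such as Cd209a and Mgl2 and mainly present to CD4 T cells. Either kind can mature, which brings up Ccr7, the receptor that guides dendritic cells to lymph nodes. The 5 genes of the rule lie at chr5:147330741-147400489 (Flt3, minus strand), chr8:3743397-3748984 (Cd209a, minus), chr9:123852315-123862029 (Xcr1, minus), chr6:129408862-129424763 (Clec9a, plus) and chr11:99144196-99155077 (Ccr7, minus) on mm10.

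Interferon-induced genes and Rel, an NF-kappaB subunit gene, are compared between kinds of cell below, so 5 promoters are shown for the letters that such genes share. Printed are the 250 bases before the start of Ifit1 (chr19:34640639-34640888, plus strand), Isg15 (chr4:156200819-156201068, minus), Rsad2 (chr12:26456453-26456702, minus), Cxcl10 (chr5:92348890-92349139, minus) and Rel (chr11:23770970-23771219, minus), 5′ to 3′, from RefSeq on GRCm38.p6. Capitals mark the core of the interferon-stimulated response element (GAAA, any 2 bases, GAAA) in the first 4, and a kappa B core (GGG, any 2 bases, TTTCC) in Rel, searched on both strands with overlapping matches kept.
Ifit1: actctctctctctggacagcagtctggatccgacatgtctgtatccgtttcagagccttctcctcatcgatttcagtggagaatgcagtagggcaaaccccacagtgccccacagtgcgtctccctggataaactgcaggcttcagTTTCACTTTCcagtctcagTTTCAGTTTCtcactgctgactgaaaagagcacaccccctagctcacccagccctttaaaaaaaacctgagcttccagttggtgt
Isg15: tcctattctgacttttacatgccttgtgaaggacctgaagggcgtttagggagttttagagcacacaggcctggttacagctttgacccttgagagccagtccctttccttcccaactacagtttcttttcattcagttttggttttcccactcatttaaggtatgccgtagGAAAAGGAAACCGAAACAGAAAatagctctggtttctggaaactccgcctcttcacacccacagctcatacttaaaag
Rsad2: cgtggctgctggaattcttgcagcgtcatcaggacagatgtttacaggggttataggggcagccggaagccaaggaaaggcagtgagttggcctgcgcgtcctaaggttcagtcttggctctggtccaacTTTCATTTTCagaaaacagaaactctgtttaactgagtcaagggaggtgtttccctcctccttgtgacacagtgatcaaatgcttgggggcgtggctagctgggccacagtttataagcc
Cxcl10: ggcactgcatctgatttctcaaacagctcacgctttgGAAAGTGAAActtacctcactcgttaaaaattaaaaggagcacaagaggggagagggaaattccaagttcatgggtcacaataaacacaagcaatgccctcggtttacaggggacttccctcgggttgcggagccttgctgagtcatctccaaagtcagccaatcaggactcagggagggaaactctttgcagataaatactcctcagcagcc
Rel: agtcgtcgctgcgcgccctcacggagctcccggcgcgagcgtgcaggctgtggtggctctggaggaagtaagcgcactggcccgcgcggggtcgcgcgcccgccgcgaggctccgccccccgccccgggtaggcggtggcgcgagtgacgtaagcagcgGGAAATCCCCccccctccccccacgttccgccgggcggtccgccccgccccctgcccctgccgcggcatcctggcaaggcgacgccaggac
The capitals began 104 and 85 bases before the start in Ifit1, 120 in Rsad2, 213 in Cxcl10 and 91 in Rel. In Isg15, 3 overlapping matches began 78, 72 and 66 bases before the start. The interferon core was in 978 of 32851 mouse promoters (2.98%). Lists were counted by gene, over the genes for which a promoter was found. The core was found for 10 of 17 genes of a type I interferon-induced list (58.8%) and 8 of 10 of an interferon gamma-induced list (80%). It was found for 1 of 25 genes of a dendritic maturation list, Serpinb9, and for none of 11 of a cDC2 list. The kappa B core was in 464 promoters (1.41%) and was found for 4 of 10 genes of the NF-kappaB list, Nfkb2, Nfkbia, Rel and Tnfaip3. A gene with more than 1 promoter would have more chances of a match, so list shares and the share over all promoters are not in the same unit. A match describes letters in this window and is not shown here to be a bound site.

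The libraries held between 143298547 and 190110092 UMIs over 7918 to 18589 barcodes. Leukocyte barcodes, those with 3 or more UMIs of Ptprc, Laptm5, Coro1a and Cd52, were 10149 of 14022 kept barcodes in G, 181 of 4579 in GPH, 1695 of 16033 in PH and 1621 of 11051 in control. Members had a median of 6310 UMIs in G, 14866 in GPH, 6173 in PH and 5194 in control. Between 17 and 79 barcode sequences occurred in both of a pair of libraries, and none of them was a member in both. The rule let in many barcodes at its edge. The 5 dendritic genes stood at exactly 2 UMIs in 81 members of G, 2 of GPH, 5 of PH and 2 of control, and 125, 0, 1 and 4 barcodes that met every other limit missed it with 1 UMI. The class II sum was between 50 and 60 per 10000 in 4, 1, 0 and 1 members, with 13, 0, 3 and 0 barcodes outside at 40 to 50. The C1q genes stood at 1 or 2 UMIs in 39 members of G and in no other member, with 16 barcodes of G outside at 3 or 4. The class II sum that chose the members had a median of 186.3 per 10000 in G, 127.6 in GPH, 195.6 in PH and 213.2 in control.

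The label was checked against genes that the rule did not use. Cst3, the cystatin gene that dendritic cells express strongly, had a UMI in 279 of 308 members of G, 5 of 5 of GPH, 10 of 12 of PH and 7 of 9 of control. With each barcode of G thinned to 1500 UMIs, Cst3 had a UMI in 92.23% of members, 90.3% of macrophages and 91.45% of monocytes. Cst3 thus did not set members apart from these cells. Zbtb46, a transcription factor gene of conventional dendritic cells, had a UMI in 78 members of G, 2 of GPH and none of PH or control. In G, with each barcode thinned to 1500 UMIs, Zbtb46 had a UMI in 5.41% of members (95% exact binomial interval 3.12 to 8.63, 16 of 296), against 0.441% of macrophages (4 of 907), 0.231% of monocytes and 0.522% of T cells, which should lack it. Without thinning these shares were 25.3%, 1.06%, 0.917% and 2.67%. The maturation chemokine gene Ccl22 gave 15.5% of thinned members, against 2.54%, 0.462% and 0.174% in the same order, and 33.8% of members without thinning. Other dendritic genes were mixed. Naaa, Batf3 and Cadm1 were in 22.64%, 3.716% and 1.014% of thinned members, and in 29%, 6.615% and 3.308% of macrophages. Wdfy4, Clec10a and Itgae went the other way, at 9.459%, 14.86% and 3.378% against 1.985%, 3.859% and 0%. Irf8 and Mgl2 were at 32.77% and 30.07% against 28.22% and 24.7%. Apoe, which macrophages express, was in 9.12% of thinned members (22.7% without thinning) and in 64.4% of macrophages. In T cells, which should lack it, its share was 6.78% (17.3% without thinning), and the intervals of members (6.097 to 12.99) and T cells (4.87 to 9.16) overlap. Markers of other cells were present in some members. The B cell genes Cd79a, Cd79b and Ms4a1 summed to 2 or more UMIs in 21 members of G, 1 of PH and 2 of control, and all 21 of G were in the Ccr7 arm described below. A longer B cell list of 8 genes did so in 30 members of G, and summed to 97.3 CPM (counts per 1000000 counted), against 13.5 CPM in macrophages. In G, 9 members held at least 20 UMIs of mast cell proteases or of Tff1 and Tff2, or at least 5 keratin UMIs. The T or NK list of 9 genes summed to 211.2 CPM in members of G, against 1341 CPM in T cells, and the macrophage list to 205.9 CPM, against 9376 CPM in macrophages. The part of these barcodes in the results was not tested, beyond the values given without them.

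Dendritic cells took a larger share of leukocytes in G than in PH or control. All 77 members led by Cd209a were in G, which held 308 of the 334 members. Members were 2.995% of leukocyte barcodes in G (2.67 to 3.35, 304 members), 2.21% in GPH (0.605 to 5.56, 4 members), 0.649% in PH (0.324 to 1.16, 11 members) and 0.555% in control (0.254 to 1.05, 9 members). The interval of G lies above those of PH and control, and that of GPH overlaps all of the others. Of all kept barcodes, members were 2.197%, 0.109%, 0.0749% and 0.0814% in the same order, and leukocytes were 72.4%, 3.95%, 10.6% and 14.7%. Each value is 1 library, so library and treatment cannot be told apart. Members were placed in an arm by whichever of Xcr1 with Clec9a, Cd209a or Ccr7 had most UMIs. In G, 25 members were in the Xcr1+Clec9a arm (8.12%, 5.32 to 11.75), 189 in the Ccr7 arm (61.4%, 55.7 to 66.8) and 77 in the Cd209a arm (25%, 20.3 to 30.2), with 15 ties and 2 members with Flt3 alone. GPH had 4 members in the Ccr7 arm and 1 tie. PH had 4 in the Xcr1+Clec9a arm, 6 in the Ccr7 arm, 1 tie and 1 with Flt3 alone, and control had 5 in the Xcr1+Clec9a arm and 4 in the Ccr7 arm. The Cd209a arm was 0 of 5 members in GPH, 0 of 12 in PH and 0 of 9 in control. Exact upper bounds were 52.18%, 26.46% and 33.63%, all above the 25% of G. Its share of members is thus not shown to differ between libraries.

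Per leukocyte, the Xcr1+Clec9a arm had overlapping intervals in G, PH and control, at 0.246% (0.160 to 0.363), 0.236% (0.0643 to 0.603) and 0.309% (0.1002 to 0.718). In GPH it was 0 of 181, which allows a share of up to 1.66% with 3 counts as the limit, and the exact upper bound is 2.02%. The Cd209a arm was 0.759% of leukocytes in G (0.599 to 0.947) and 0 in GPH, PH and control, which allows up to 1.66%, 0.177% and 0.185% with 3 counts as the limit, with exact upper bounds of 2.02%, 0.217% and 0.227%. The Ccr7 arm was 1.82% in G (1.57 to 2.10), 2.21% in GPH (0.605 to 5.56), 0.295% in PH (0.0959 to 0.687) and 0.247% in control (0.0673 to 0.631). Without members with 2 or more UMIs of Cd79a, Cd79b and Ms4a1 it was 1.63%, 2.21%, 0.236% and 0.123%. All members were then 2.80%, 2.21%, 0.590% and 0.432%. Members of G with UMIs of other B cell genes stay in these shares. The intervals of G lie above those of PH and control in the Ccr7 arm, and above both kinds of limit of PH and control in the Cd209a arm. Outside the members, Cd209a UMIs were found in 128 further leukocytes of G, in 13 of PH and in 2 of control. Over all leukocytes, Cd209a had a UMI in 2.55% of G (2.25 to 2.88), 0 of 181 of GPH, 0.767% of PH (0.409 to 1.31) and 0.123% of control (0.0150 to 0.445), so the gene was not absent from PH. In T cells of G, which should lack Cd209a, 0.927% had a UMI at a median depth of 4223 UMIs, against a median of 4231 UMIs over all leukocytes of G. Ccr7, which T cells also express, had a UMI in 14.3% of leukocytes of G, 8.84% of GPH, 4.96% of PH and 2.71% of control.

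**Figure D1:**
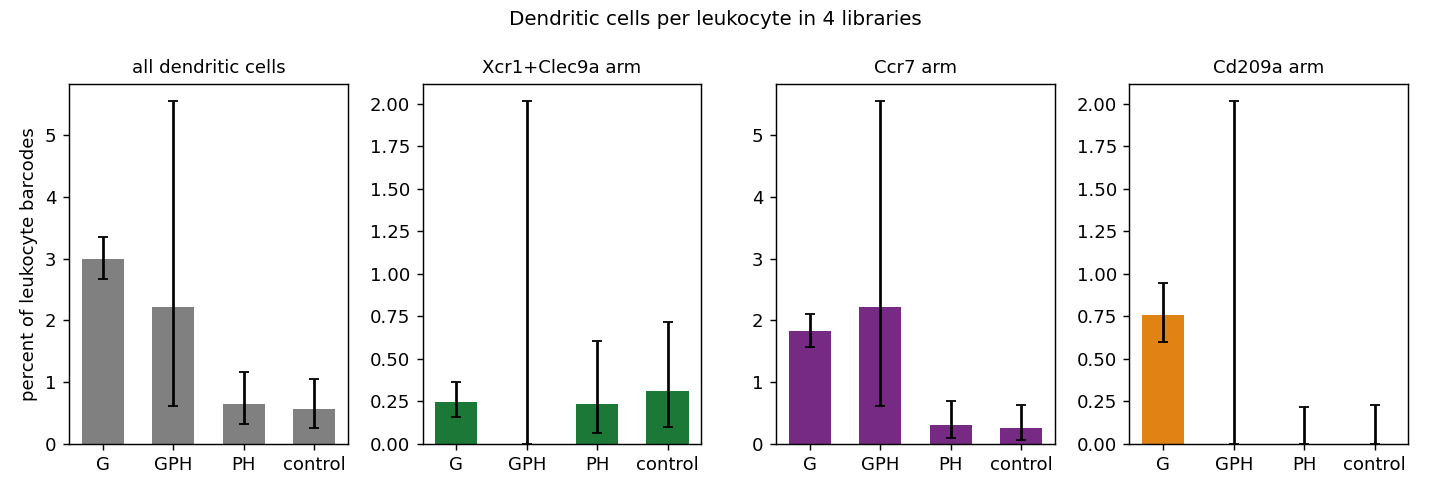
Dendritic cells and their 3 arms as a percent of leukocyte barcodes in the G, GPH, PH and control libraries, with exact 95% intervals for counting error as bars. All members reach 2.995% in G against 0.649% in PH and 0.555% in control, the Xcr1+Clec9a arm is at 0.246%, 0.236% and 0.309%, and the Cd209a arm is at 0 outside G.

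Comparisons across genes were made within G, where members could be set beside other myeloid cells of the same library. C1q-positive macrophages were 945 barcodes with 10 or more C1q UMIs, and C1q-low monocytes were 436 barcodes chosen by Lyz2, Csf1r, Ccr2 and Fcgr1 and by few dendritic genes. Levels of C1q, of those gate genes and of the 5 dendritic genes therefore differ by construction and are not results. Counts were summed per class and scaled to CPM, and a gene was measured at 50 CPM in 1 of both classes and 20 UMIs over both. Against macrophages, 135 of 2478 measured genes were at least 2-fold higher in members (5.45%) and 287 were at least 2-fold lower (11.6%). Against monocytes, 161 of 2526 were higher (6.37%) and 301 were lower (11.9%). These counts are by size only.

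Kit, the stem cell factor receptor gene, was at 78.6 CPM in members and 2.75 CPM in macrophages, a ratio of 28.6 (18.1 to 47.3). Its 181 UMIs lay in 95 of the 308 members. Cd200, which encodes a ligand that restrains myeloid cells, was at 67.8 CPM against 2.75 CPM. Plet1, a surface protein gene, was at 191.6 CPM against 10.6 CPM, and Tbc1d4, a regulator of vesicle transport, at 192 CPM against 11.8 CPM. H2-Oa, which encodes a subunit of the class II modulator H2-O, was at 127.3 CPM in members, 8 CPM in macrophages and 5.50 CPM in monocytes. The natural killer receptor gene Klrd1 was at 197.3 CPM in members and 12.3 CPM in macrophages, and T cells of the same library held 260.2 CPM. The muscle troponin gene Tnni2 was at 78.2 CPM in members and 5.12 CPM in macrophages. The mast cell genes Mcpt4, Mcpt2 and Cma1 also ranked among the 10 highest ratios, but 1 barcode held 187 of 191, 141 of 141 and 161 of 168 of their UMIs. Against monocytes, high ratios included those of Tbc1d4, at 69.9 (33.6 to 174.8), Ccl22, at 50.2 (26.2 to 110.5), and Fscn1, the actin-bundling gene of mature dendritic cells, at 32.5 (14.6 to 89.6). Ccl17, which encodes a ligand of Ccr4 as Ccl22 does, was at 409.7 CPM in members and 29.9 CPM in monocytes. Tff2 and Tff1, of mucus-secreting epithelium, were also among the 10 highest, but 1 barcode held 766 of 780 and 536 of 561 of their UMIs.

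Among the genes lowest in members were known products of macrophages and monocytes. Saa3, an acute phase protein gene, was at 3.91 CPM in members and 1029 CPM in macrophages, and Ccl8, a monocyte chemoattractant gene, at 15.6 CPM against 2132 CPM. Apoe, the lipid carrier gene, was at 82.1 CPM in members, 7917 CPM in macrophages and 1474 CPM in monocytes. Arg1, the arginase gene, had 0 UMIs in members and 1661 in macrophages, so it was at least 167.1-fold lower when 3 UMIs are taken as the limit for members. The scavenger receptor gene Marco also had 0 UMIs, at least 75.5-fold lower. Pf4 and Lyz1 were 95.1-fold (43.6 to 259.5) and 84.5-fold (32.9 to 310.7) lower than in macrophages. Chil3, a chitinase-like gene of monocytes, was at 7.82 CPM in members and 613.9 CPM in monocytes, and Thbs1, the thrombospondin gene, at 73.9 CPM against 1617 CPM. Ahsg, a plasma protein gene of the liver, and Wfdc18 were among the 10 lowest against monocytes, but 1 monocyte barcode held 207 of 207 and 203 of 207 of their UMIs.

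Maturation and NF-kappaB genes were more often higher in members than genes at large, and lysosomal genes more often lower. Of 17 measured genes of the dendritic maturation list, 10 were at least 2-fold higher than in macrophages and 0 were lower, and the median log2 ratio was 1.41 against -0.07 over all measured genes. Against monocytes, 14 of 17 were higher, with a median of 1.36 against -0.13. Serpinb9, a granzyme B inhibitor gene, was at 284.2 CPM in members and 35.7 CPM in macrophages, and Traf1, a signalling adaptor gene of TNF receptors, at 368.9 CPM against 60.7 CPM. Of 11 measured NF-kappaB genes, 4 were higher than in macrophages and 5 higher than in monocytes, with medians of 0.71 and 1.00. Rel, an NF-kappaB subunit gene, was at 943.7 CPM in members, 379.1 CPM in macrophages and 261.6 CPM in monocytes. Of 19 lysosomal genes, 14 were lower than in macrophages, with a median of -1.27, and 9 were lower than in monocytes, with a median of -0.99. The protease genes Ctsd and Ctsb were at 39.1 and 144.2 CPM in members, against 720.8 and 1136 CPM in macrophages. Lamp1, a membrane protein gene of lysosomes, was at 134.3 CPM against 604.2 CPM. Lists of dendritic lineage genes were mixed. Of 11 measured lineage genes outside the rule, 3 were higher and 0 lower than in macrophages, with a median of 0.55. Of 7 cDC1 genes 3 were higher and 0 lower, with a median of 0.49. Of 11 cDC2 genes, 2 were higher and 5 lower than in macrophages, with a median of -0.59. Against monocytes 4 cDC2 genes were higher and 4 lower, with a median of -0.93.

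Antigen presentation genes outside the rule were not uniformly different. Of 10 measured class II genes, 3 were higher and 2 lower than in macrophages, with a median of -0.11. H2-DMb2, a peptide editor subunit gene, was at 242.9 CPM in members, 49.4 CPM in macrophages and 31.0 CPM in monocytes. Of 16 class I genes, 1 was higher and none lower than in macrophages. Costimulation genes had a median of 1.17 over 4 measured genes against monocytes, and Cd80, a ligand gene of Cd28, was at 98.6 CPM in members against 37.1 CPM in macrophages and 43.6 CPM in monocytes. Of 13 chemokine genes, 3 were higher and 6 lower than in macrophages. Cxcl9, the interferon gamma-induced ligand of Cxcr3, was at 1353 CPM in members, 1790 CPM in macrophages and 1166 CPM in monocytes.

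Type I interferon-induced and mitotic genes were higher in members than in monocytes, and less so against macrophages in summed counts. Among 9 type I interferon genes measured against monocytes, 5 passed 2-fold upward and 0 downward, and the median was 1.17, while 1 of 8 was higher than in macrophages, with a median of 0.35. Ifit1, which encodes a binder of viral RNA, was at 333.3 CPM in members, 130.1 CPM in macrophages and 39.3 CPM in monocytes. Isg15, the ubiquitin-like modifier gene, was at 325.4, 229 and 144.5 CPM in the same order. With every barcode given equal weight, the list medians were 0.40 against monocytes and 0.38 against macrophages, so that gap was not seen. Mki67, Top2a, Birc5 and Ube2c, which dividing cells express, were 2.51-, 2.31-, 4.08- and 3.58-fold higher than in monocytes, and these 4 were all of the mitotic list that was measured. Against macrophages 1 of the 4 passed 2-fold, Birc5 at 2.15-fold, and the median was 0.68, against 1.58 for monocytes.

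**Figure D2:**
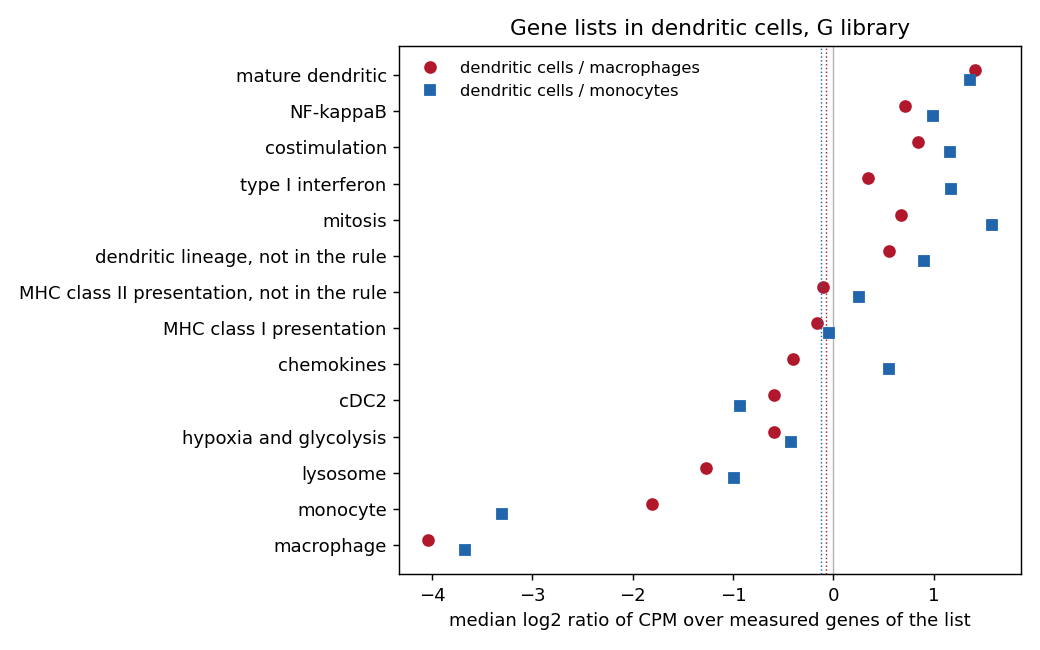
Median log2 ratio of CPM over the measured genes of each list, in dendritic cells of G over macrophages (circles) and over monocytes (squares), with dotted lines at the medians of all measured genes. The maturation list stands at 1.41 and 1.36, the lysosome list at -1.27 and -0.99 and the macrophage list at -4.04 against macrophages.

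The 25 members of the Xcr1+Clec9a arm had the cDC1 genes that the rule did not use. They were also deeper, at a median of 14930 UMIs, against 6343 UMIs in the 77 members of the Cd209a arm. Of 2498 measured genes, 199 were at least 2-fold higher in the Xcr1+Clec9a arm than in the Cd209a arm (7.97%) and 342 were lower (13.7%). Of 11 measured cDC1 genes, 9 were higher and 0 lower, and the median was 2.47 against 0.05 over all measured genes. Irf8, the lineage factor gene, was at 622.9 CPM (545.8 to 707.9) in the Xcr1+Clec9a arm and 196.1 CPM in the Cd209a arm. Batf3, its partner, was at 84.8 CPM against 12.9 CPM. Itgae, the integrin CD103 gene, had 36 UMIs against 2, a ratio of 29.7 (7.64 to 254.5), and the adhesion gene Cadm1 had 29 UMIs against 2. Ppt1, a lysosomal thioesterase gene, was at 352.5 CPM against 41.8 CPM and had a UMI in 24 of the 25 members. Cd36, a scavenger receptor gene, had 43 UMIs against 2, and Dnase1l3, a secreted nuclease gene, 44 UMIs against 1, a ratio of 72.6 (12.4 to 2931). Cst3 was at 19061 CPM against 6854 CPM. Rab7b, of endosomal transport, was at 204.1 CPM against 37.0 CPM, and the serpin gene Serpinb6b at 328.7 CPM against 40.2 CPM.

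The Cd209a arm had cDC2, interferon, chemokine and immediate early genes that were low in the Xcr1+Clec9a arm. Of 10 measured cDC2 genes, 8 were at least 2-fold lower in the Xcr1+Clec9a arm, with a median of -2.56. Mgl2, a lectin gene of cDC2, was at 34.5 CPM in the Xcr1+Clec9a arm and 519.1 CPM in the Cd209a arm, and the lectin gene Clec10a had 3 UMIs against 129. Irf4, the cDC2 factor gene, had 1 UMI against 38, a ratio of 0.0434 (0.00107 to 0.257). Of 8 measured type I interferon genes 5 were lower, with a median of -2.35, and of 12 interferon gamma genes 9 were lower, with a median of -1.77. Of 12 chemokine genes 7 were lower and 1 higher, with a median of -1.25. The list of immediate early genes, which dissociation of tissue also induces, moved with these, with 8 of 15 lower and a median of -1.11, and its part in the other values was not tested. Ifit1 had 1 UMI in the Xcr1+Clec9a arm and 288 UMIs in 22 members of the Cd209a arm. Cxcl10, the interferon-induced chemokine gene, was at 76.9 CPM against 793.9 CPM, whereas Cxcl9 was at 1042 CPM against 967.4 CPM, a ratio of 1.08 (0.946 to 1.22). Ccl17 was 35.0-fold lower in the Xcr1+Clec9a arm (13.5 to 129.6). Rel was at 212.1 CPM against 747.3 CPM, and Hilpda, a lipid droplet gene that hypoxia induces, at 68.9 CPM against 474.1 CPM. The hypoxia and glycolysis list was not lower as a whole. Of its 10 measured genes 1 was higher and 3 were lower, with a median of 0.64 against 0.05 over all measured genes. Among DNA replication genes, 3 of 5 measured genes were higher in the Xcr1+Clec9a arm, Mcm3 at 66.3 CPM against 24.1 CPM, Mcm6 at 63.6 CPM against 22.5 CPM and Rrm1 at 58.3 CPM against 16.1 CPM. Of the 10 lowest ratios, 8 rested on genes with over 50% of their UMIs in 1 barcode of the Cd209a arm, among them Tff1 and Tff2, with 1302 of the 1341 UMIs of members in that barcode. Without the 9 members with RNA of mast or ductal cells, Itgae had 31 UMIs against 2 and Ifit1 had 1 UMI against 284.

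**Figure D3:**
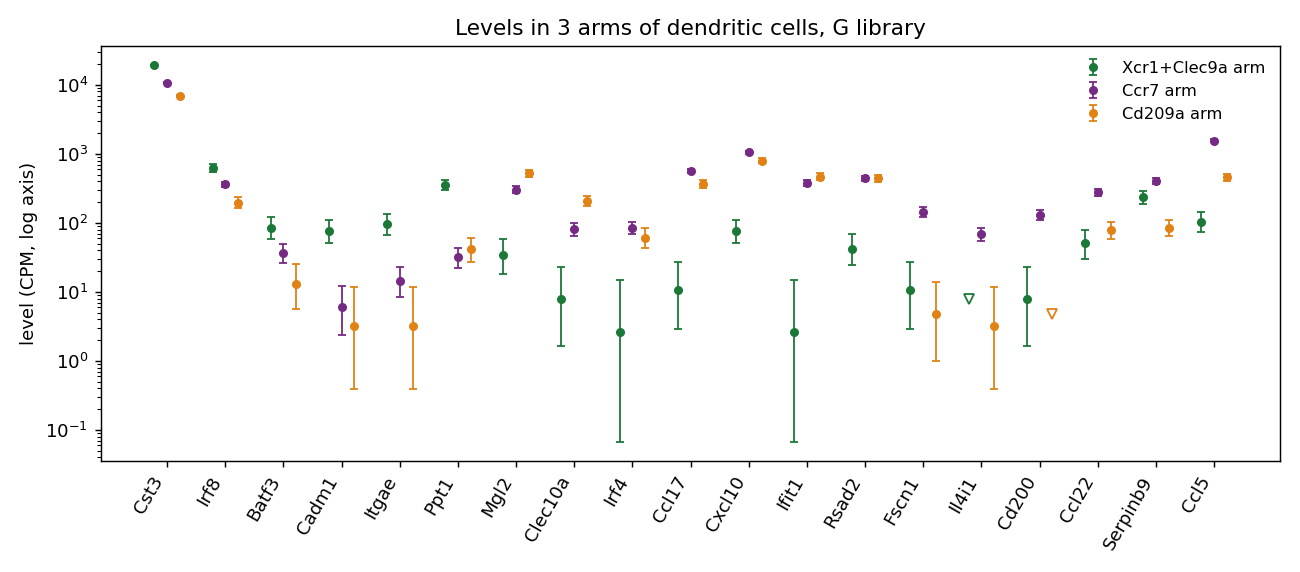
Levels of 19 genes in CPM on a log axis in the Xcr1+Clec9a, Ccr7 and Cd209a arms of G, with exact Poisson 95% intervals and open triangles at the level of 3 UMIs where none was counted. Irf8 and Batf3 are highest in the Xcr1+Clec9a arm, at 622.9 and 84.8 CPM, Mgl2 is highest in the Cd209a arm, at 519.1 CPM, and Ccl22 is highest in the Ccr7 arm, at 277.3 CPM.

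The Ccr7 arm had fewer genes at least 2-fold from the Cd209a arm than the Xcr1+Clec9a arm had. It held 189 members and 1172102 UMIs. The Xcr1+Clec9a arm held 25 members and 377260 UMIs, and the part of size in these counts was not tested. Of 2329 measured genes, 100 were at least 2-fold higher in the Ccr7 arm (4.29%) and 88 were lower (3.78%). Of 22 measured maturation genes 14 were higher and none lower, with a median of 1.27 against -0.07 over all measured genes, and of 12 NF-kappaB genes 5 were higher and none lower, with a median of 0.83. The list was drawn up for cells of this kind, so its direction is a description. Fscn1 had 169 UMIs in the Ccr7 arm and 3 in the Cd209a arm, a ratio of 29.9 (10.1 to 146.5). Il12b, which encodes the p40 chain of the T cell-priming cytokines IL-12 and IL-23, had 90 UMIs against 2, and Il4i1, an amino acid oxidase gene, 80 UMIs against 2. Cd200 had 152 UMIs against 0, at least 26.9-fold higher with 3 UMIs as the limit over the Cd209a arm. Ccl22 was at 277.3 CPM against 78.8 CPM, Ccl5, a chemokine gene, at 1559 CPM against 461.2 CPM, with 2380 CPM in T cells, and Relb, a subunit gene of the alternative NF-kappaB pathway, at 109.2 CPM against 45.0 CPM. Clec10a was at 80.2 CPM against 207.3 CPM and Naaa, an amidase gene, at 159.5 CPM against 380.9 CPM. Of 11 type I interferon genes 1 was higher, and the median was -0.02, near that of all genes. The B cell genes Cd79a and Ebf1 had 79 and 69 UMIs in the Ccr7 arm and none in the Cd209a arm. Of the 10 highest ratios 5 rested mostly on 1 barcode each, as did all of the 10 lowest, and a single Ccr7 barcode held 716 of the 733 mast protease UMIs. Without the 9 members with RNA of mast or ductal cells, Fscn1 had 159 UMIs against 3, Cd200 151 against 0 and Il12b 90 against 2.

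The Ccr7 arm of G held 3 sets of barcodes, split after its values had been seen. With 2 or more UMIs over Fscn1, Cacnb3, Il4i1, Cd200 and Nudt17, and no B cell call, were 34 members. The B cell call, 2 or more UMIs of Cd79a, Cd79b and Ms4a1, marked 21 members, and 134 members met neither limit. The longer B cell list of 8 genes reached 2 UMIs in 30 members of G, so some B cell RNA remains outside the 21. The 21 had a median of 2074 UMIs, against 5948 in the 34 and 6318 in the 134. In the 21, Cd79a was at 1592 CPM and Ebf1 at 981.2 CPM, while Cst3 was at 87.2 CPM, with 4 UMIs in all, against 10677 CPM in the 134. Ccl22, Ccl5 and Mgl2 had no UMI in the 21. Those barcodes met the rule but held few of the dendritic genes that the other members held.

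In the 34 members with maturation UMIs, Ccr7 was at 2939 CPM, against 958.6 CPM in the 134 others. The genes named next were not among the 5 that split the arm. Samsn1, an adaptor gene, was at 1391 CPM in the 34, against 238.3 CPM in the 134. Ccl22 was at 575.2 CPM against 212.4 CPM and Ccl5 at 3350 CPM against 1163 CPM. Il12b had 64 UMIs against 26, or 270.7 against 29.2 CPM, and lay in 23.5% of the 34 and 2.24% of the 134. Socs2, a suppressor of cytokine signalling, was at 287.6 CPM against 21.4 CPM and Serpinb6b at 769.7 CPM against 137.1 CPM. Irf8 was at 706.3 CPM against 264.1 CPM and Batf3 at 101.5 CPM against 21.4 CPM. The cDC2 gene Mgl2 was at 84.6 CPM against 377.6 CPM. Naaa had 3 UMIs against 184. Ifit1 was at 114.2 CPM against 465.3 CPM, Rsad2, an antiviral enzyme gene, at 139.6 CPM against 542.8 CPM, Cxcl10 at 376.4 CPM against 1278 CPM and Hilpda at 88.8 CPM against 528.2 CPM. Rel was nearly level, at 1150 CPM against 1339 CPM. Top2a had 0 UMIs in the 34 and 52 UMIs in the 134.

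The 134 others lay close to the Cd209a arm in some of the same genes and apart from it in others. They were chosen for few maturation UMIs, of which the Cd209a arm also had few, so some likeness is by construction. Ifit1 was at 465.3 CPM in the 134 and 462.8 CPM in the Cd209a arm, a ratio of 1.01 (0.863 to 1.17). In the Cd209a arm its 288 UMIs lay in 22 members, 84 of them in 1, which the interval does not take into account. Hilpda was at 528.2 CPM against 474.1 CPM, Wdfy4, a cross-presentation gene, at 91.0 CPM against 86.8 CPM, and Mgl2 at 377.6 CPM against 519.1 CPM. Genes higher in the 134 than in the Cd209a arm included Serpinb9, 3.63-fold (2.70 to 4.97), Ccl22, 2.70-fold (1.96 to 3.78), Kit, 2.58-fold (1.70 to 4.03), Ccl5, 2.52-fold (2.21 to 2.89), and Id2, a dendritic lineage regulator gene, 2.30-fold (1.94 to 2.73). Serpinb6b, Rel and Cxcl10 were also higher in the 134, and Naaa was lower.

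**Figure D4:**
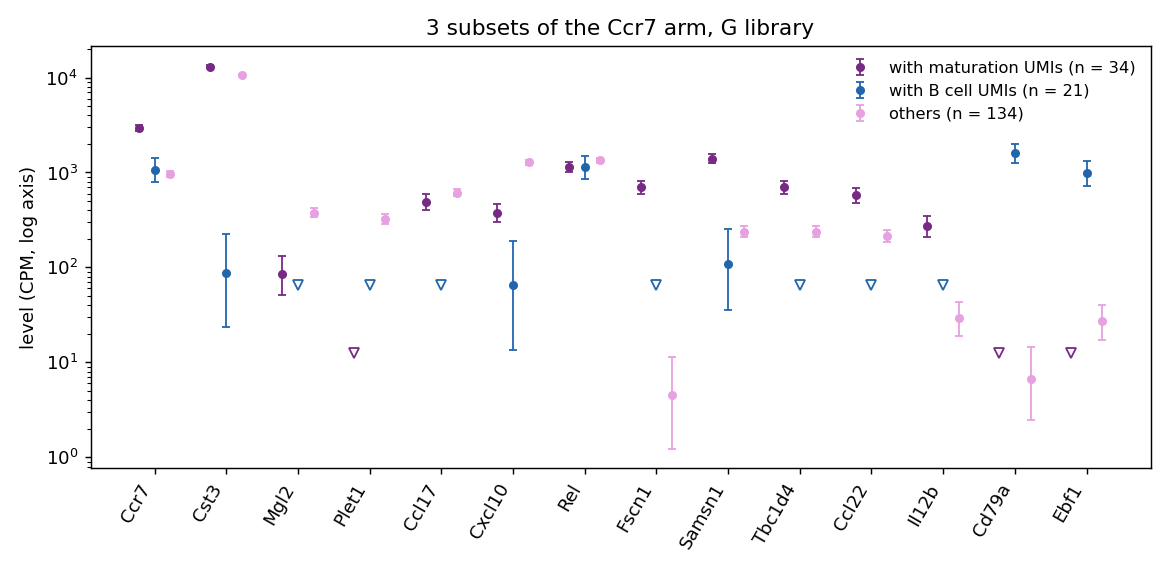
Levels of 14 genes in CPM on a log axis in 3 subsets of the Ccr7 arm of G, with exact Poisson 95% intervals and open triangles at the level of 3 UMIs where none was counted. The 34 members with maturation UMIs have Samsn1 at 1391 CPM and Mgl2 at 84.6 CPM, the 134 others have them at 238.3 and 377.6 CPM, and the 21 with B cell UMIs have Cd79a at 1592 CPM and Cst3 at 87.2 CPM.

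Interferon-induced RNA was spread unevenly over the members of G. The 22 genes of the type I interferon list had 4732 UMIs in 308 members. The 31 members with most held 53.1% of these UMIs, and 31 members held none. The median was 7.64 per 10000 UMIs and the highest was 206.5. At least 50 per 10000 was reached by 41 members. These were 1 of 25 in the Xcr1+Clec9a arm, 27 of 189 in the Ccr7 arm, 11 of 77 in the Cd209a arm and 2 of the 15 ties, and the medians of the arms were 3.45, 9.14 and 9.52 per 10000. Levels of these genes in an arm thus rest largely on a minority of its barcodes, and the Xcr1+Clec9a arm held 25 in all.

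**Figure D5:**
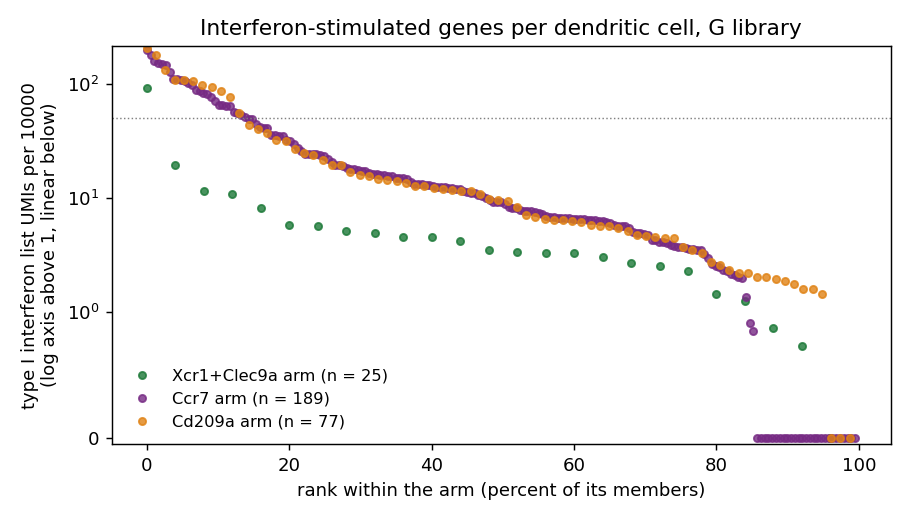
UMIs of 22 type I interferon-induced genes per 10000 UMIs in each member of G, ranked within its arm, with a dotted line at 50. The line is passed by 1 of 25 members of the Xcr1+Clec9a arm, 27 of 189 of the Ccr7 arm and 11 of 77 of the Cd209a arm.

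Levels in all 4 libraries are given side by side without ratios, since GPH, PH and control held 5, 12 and 9 members and differed in their arms. The highest Scrublet scores, a measure of likeness to doublets, took in 3 of the 5 members of GPH, 0 in PH and 2 in control, against 18 of 308 in G. Irf8 was at 353.7 CPM in G (329.8 to 378.8), 217.9 CPM in GPH (116 to 372.7), 465.1 CPM in PH (329.1 to 638.4) and 349.1 CPM in control (232 to 504.5). These intervals overlap in part, and in GPH all 13 UMIs lay in 1 member. Cst3 was at 11185 CPM in G, 5549 CPM in GPH, 14650 CPM in PH and 36442 CPM in control. Cd74, the class II chaperone gene, lay between 9840 CPM in GPH and 14861 CPM in control, with 11397 CPM in G and 10256 CPM in PH. Cd83, a surface gene of activated dendritic cells, was at 449.7 CPM in G (422.7 to 477.9), 905.2 CPM in GPH (680 to 1181), 501.8 CPM in PH (360.1 to 680.8) and 299.2 CPM in control (191.7 to 445.2). It was found in most members of every library.

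The cDC2 lectin Mgl2 was at 325.4 CPM in G (749 UMIs in 140 members), with 1 UMI in GPH, 0 in PH and 3 in control. Counts of 0 in PH allow up to 36.7 CPM at 3 UMIs. The 3 UMIs of control correspond to 37.4 CPM. Mgl2 lay in 140 of 308 members of G, 1 of 5 of GPH, 0 of 12 of PH and 3 of 9 of control. Members held 2301566 UMIs in G, 59654 in GPH, 81705 in PH and 80209 in control, so raw counts cannot be compared directly. Itgae, of cDC1, was at 25.6 CPM in G, 73.4 CPM in PH (6 UMIs) and 249.3 CPM in control (20 UMIs), with none in GPH. Fscn1 had 176 UMIs in G, 1 in GPH, 1 in PH and 0 in control. It lay in 32 of 308, 1 of 5, 1 of 12 and 0 of 9 members, so it is not shown to be particular to G.

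Chemokine and interferon genes in the small libraries often came from 1 cell. Cxcl9 was at 1353 CPM in G, in 204 members, at 83.8 CPM in GPH, 318.2 CPM in PH and 299.2 CPM in control, where 1 member held all 24 UMIs. Cxcl10 was at 832.5 CPM in G, 2833 CPM in GPH, 0 in PH and 12.5 CPM in control, and 1 member of GPH held 165 of its 169 UMIs. Ccl22 was at 177.3 CPM in G, 1056 CPM in GPH, 452.8 CPM in PH and 0 in control, with 58 of 63 UMIs of GPH and 34 of 37 of PH in 1 member each. Ifit1 had 767 UMIs in 78 of 308 members of G, 5 in GPH, all in 1 member, and 0 in PH and control. Isg15 was at 325.4 CPM in G (302.5 to 349.6), 83.8 CPM in GPH (27.2 to 195.6), 36.7 CPM in PH (7.57 to 107.3) and 12.5 CPM in control (0.316 to 69.5). Its UMIs lay in 154 of 308, 5 of 5, 2 of 12 and 1 of 9 members. Il1b, the inflammatory cytokine gene, was at 525.3 CPM in G, 3386 CPM in GPH, 465.1 CPM in PH and 149.6 CPM in control, with 149 of the 202 UMIs of GPH in 1 member.

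The Xcr1+Clec9a arm had 25 members in G, 4 in PH and 5 in control, and none in GPH. Its cDC1 list summed to 2826 CPM in G (2659 to 3000), 2125 CPM in PH (1727 to 2587) and 3570 CPM in control (3132 to 4053). The interferon gamma list summed to 1532 CPM in G (1410 to 1662), 772.7 CPM in PH (541.2 to 1070) and 194.2 CPM in control (103.4 to 332.1). By member, its lowest, median and highest values were 0.727, 12.9 and 61.2 per 10000 in G, 0, 6.31 and 15.1 in PH, and 0, 3.13 and 6.59 in control, so the ranges overlapped. The list of class II genes outside the rule was instead highest in control, at 18060 CPM (17056 to 19107). It summed to 11793 CPM in G (11449 to 12145) and 8843 CPM in PH (8009 to 9739). Cxcl9 had 393 UMIs in 22 of 25 members of G, 16 UMIs in 1 of 4 members of PH and 0 UMIs in the 5 members of control. Chemokine genes summed to 1954 CPM in G, 1760 CPM in PH and 313.7 CPM in control. Beside those Cxcl9 counts, the whole interferon gamma list held 578, 36 and 13 UMIs in G, PH and control. The whole chemokine list held 737, 82 and 21 UMIs. In G, Cxcl9 was thus large next to both sums, and its part in the differences between libraries was not tested. Immediate early genes summed to 2444 CPM in G, 7061 CPM in PH (6319 to 7867) and 2061 CPM in control. Genes of other tissue were also highest in the 4 members of PH: the mesenchymal list summed to 84.8 CPM in G, 1352 CPM in PH (63 UMIs) and 14.9 CPM in control, and the ductal tumour list to 63.6, 321.9 and 14.9 CPM. Their part in the values of PH was not tested. Junb, an immediate early gene, was at 328.7 CPM in G, 1953 CPM in PH and 209.1 CPM in control, with medians by member of 2.60, 16.2 and 1.98 per 10000. Nfkbia, the NF-kappaB inhibitor gene, was at 95.4 CPM in G, 1138 CPM in PH and 89.6 CPM in control, and had a UMI in all 4 members of PH. Cst3 was at 19061 CPM in G, 14895 CPM in PH and 42558 CPM in control, with lowest values by member of 7.81, 64.8 and 276 per 10000.

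Within the Ccr7 arm, with 189 members in G, 4 in GPH, 6 in PH and 4 in control, Ccr7 itself was at 1363, 1370, 2082 and 1282 CPM. The maturation list summed to 5214 CPM in G (5084 to 5346), 4693 CPM in GPH (4154 to 5283), 4286 CPM in PH (3506 to 5189) and 1960 CPM in control (1280 to 2872). The NF-kappaB list summed to 5003 CPM in G, 7108 CPM in GPH, 4654 CPM in PH and 1658 CPM in control. B cell genes ran in the opposite order to the NF-kappaB list, at 190.3 CPM in G, 0 in GPH, 612.3 CPM in PH and 3242 CPM in control, where 2 of the 4 members had B cell UMIs. Their part in the lower sums of control was not tested. Rel was at 1293 CPM in G, 1456 CPM in GPH, 1061 CPM in PH and 452.3 CPM in control.

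The series' design names autophagy and stress of the endoplasmic reticulum as its interest, so the genes on which the drugs act are given for the members. Paricalcitol activates the vitamin D receptor. Its gene Vdr was at 52.6 CPM in G (83 members), 33.5 CPM in GPH (2 UMIs), 0 in PH and 24.9 CPM in control (2 UMIs). Cyp24a1, the classic target gene of the receptor, had 0 UMIs in every library, which allows 1.30 CPM in G and 36.7 CPM in PH. Hydroxychloroquine raises the pH of lysosomes and blocks the end of autophagy. Sqstm1, the autophagy receptor p62 gene, was at 233.8 CPM in G (214.4 to 254.4), 469.4 CPM in GPH (311.9 to 678.4), 403.9 CPM in PH (278 to 567.2) and 37.4 CPM in control (7.71 to 109.3). In the Xcr1+Clec9a arm alone it was at 190.8 CPM in G, 472.2 CPM in PH and 44.8 CPM in control. Map1lc3b, the LC3B gene, was at 174.2, 150.9, 171.3 and 187 CPM in G, GPH, PH and control. The autophagy list summed to 1339 CPM in G, 1626 CPM in GPH, 1493 CPM in PH and 1047 CPM in control, and the lysosome list to 4617, 4208, 4284 and 4999 CPM. Hspa5, the chaperone gene of the endoplasmic reticulum, was at 824.2 CPM in G, 771.1 CPM in GPH, 930.2 CPM in PH and 598.4 CPM in control. Atf4, the factor gene of the integrated stress response, was at 130.8 CPM in G, 150.9 CPM in GPH, 97.9 CPM in PH and 149.6 CPM in control. Dck, the kinase gene that activates gemcitabine, had a UMI in 64 of 308 members of G, 0 of 5 of GPH, 1 of 12 of PH and 2 of 9 of control.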

How the data were processed

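The authors deposited raw UMI counts per gene and barcode for 4 10x libraries, with 32285 features each. The counts came from Cell Ranger 7.0.1 per the file headers, whereas the submitters' processing notes give Cell Ranger 6.1 and mm10. How barcodes were called is not given in the sources used here. Members, gene lists and arms were chosen with earlier results of these data known. Leukocytes, macrophages and monocytes were defined by raw UMIs as stated in the text. UMIs were summed per class, scaled to CPM and compared as ratios with exact conditional binomial intervals. Levels have exact Poisson intervals and shares have Clopper-Pearson intervals, all at 95%. Ratios were computed only where both classes held at least 10 members within an arm, or 20 members in a library.

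Genes named were the 10 highest and 10 lowest per comparison, ranked by the interval bound nearest to no change. Left out were the genes of the rule, predicted and sex-linked genes, and those of mitochondria, ribosomal proteins, haemoglobin and the antigen receptors, as well as genes at under 1/10 of their level in another class of at least 100 barcodes. Genes of the lists were named beside these. Genes with most of their UMIs in 1 barcode are given only as such. For shares of barcodes with a UMI, each barcode was thinned to 1500 UMIs, and 600 T cells were drawn at random. The B cell call sums Cd79a, Cd79b and Ms4a1, and the planned sum with a further gene is not reported here. Doublets were kept, because Scrublet's automatic threshold called 0 barcodes in G, 20 in GPH, 1 in PH and 0 in control; removal of the highest scores at 0.8% per 1000 barcodes was an alternative. Ratios and intervals were tested on simulated class totals without spread between barcodes, so that test does not cover such spread. Ratios there were centred on the unchanged genes, which was not done for the values given. The member rule was tested on a few made-up barcodes. The tools were scanpy 1.11.5, scipy 1.17.1, matplotlib 3.10.9, pandas 2.3.3 and numpy 2.4.6 under Python 3.11.15.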

Additional observations from a re-analysis of the deposited data

How the results depend on the processing

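No paired analysis was possible because each group has 1 library. The planned contrasts of G, PH and GPH with control were not run, nor were their alternatives, since GPH, PH and control each held fewer than 20 members. The same alternatives for gene counts and single genes within G, those for the interferon and mitosis lists against macrophages, the removal of barcodes with other RNA, the B cell call and the split of the Ccr7 arm were chosen after seeing the data. Of the values that answer a comparison, 528 were counted as unchanged and 37 as moved. Shares in GPH, PH and control rest on few members and have wide intervals, so a large change could still count as unchanged. The Ccr7 arm of control was 0.247% of leukocytes (0.0673 to 0.631), and 0.123% without members with B cell UMIs. That change was counted as unchanged. The count of 528 therefore cannot show that shares in these libraries are stable. With at least 3 UMIs of the 5 dendritic genes, members of G were 1.619% of kept and 2.217% of leukocyte barcodes, and the Ccr7 arm was 1.399% of leukocytes. With no C1q UMI the first 2 shares were 1.918% and 2.611%. The Ccr7 arm was 100% of members in GPH with 3 dendritic UMIs (3 of 3 members), with class II of 100 per 10000 (4 of 4), with at most 10% mitochondrial UMIs (4 of 4) and without the highest Scrublet scores (2 of 2). Without thinning, Zbtb46, Ccl22 and Apoe had a UMI in 25.32%, 33.77% and 22.73% of members of G.

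Median log2 ratios of lists moved as follows. Between the Xcr1+Clec9a and Cd209a arms, the type I interferon list was at -3.778 with 3 dendritic UMIs and -1.638 as the mean of per-cell CPM. The cDC2 and interferon gamma lists were at -3.162 and -1.169 with class II of 100 per 10000, and the cDC1 list was at 1.334 with genes of 100 CPM or more. The macrophage list was at -4.644 against macrophages with no C1q UMI. Against monocytes, mitosis was at 2.216 without the highest Scrublet scores, type I interferon at 0.4038 by per-cell CPM and maturation at 2.163 in the Ccr7 arm alone. With genes of 100 CPM or more, counts higher and lower were 72 and 164 against macrophages, 97 and 153 against monocytes, 52 and 36 for the Ccr7 against the Cd209a arm, and 77 and 172 for the Xcr1+Clec9a against the Cd209a arm. At 20 CPM they were 259 and 552, 305 and 582, 288 and 234, and 334 and 545 in the same order. More genes pass the lower limit by construction, and the cause of the other moves was not tested. The sign turned in 2 gene values. Igtp was at 0.1077 between the Ccr7 and Cd209a arms with class II of 100 per 10000 and at -1.46 otherwise. Fscn1 was at -0.7306 against macrophages in the Cd209a arm alone, against 3.26 over all members. Depth limits GPH, PH and control, where 3 UMIs correspond to 50.3, 36.7 and 37.4 CPM, against 1.30 CPM in G.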

Other observations

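Markers of further dendritic kinds were sparse. The 6 genes of a plasmacytoid list summed to 50.0 CPM in G, 0 in GPH, 24.5 CPM in PH and 261.8 CPM in control, with 2 or more UMIs in 13, 0, 0 and 3 members. B cell genes moved with this list. In G, 41 of its 115 UMIs, all of Ly6d, and 7 of the 13 members were among the 21 members of the Ccr7 arm with B cell UMIs, and in control 20 of 21 UMIs lay in the Ccr7 arm, where 2 of 4 members had B cell UMIs. A list of 2 Langerhans cell genes did so in 7, 0, 1 and 1 members. The RNA of other tissues was also uneven: mesenchymal genes summed to 60.0 CPM in G, 83.8 CPM in GPH, 795.5 CPM in PH and 12.5 CPM in control, with 2 or more UMIs in 12, 1, 2 and 0 members. Barcodes with at least 3 B cell UMIs were 1.37% of leukocytes in G, 0 in GPH, 1.18% in PH and 1.05% in control.

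In G, the vitamin D list summed to 275 CPM in members, against 1178 CPM in macrophages, 1115 CPM in monocytes and 79.7 CPM in T cells, and Vdr was at 52.6, 71.5, 58.9 and 5.996 CPM in the same order. Dck was at 41.3 CPM in members, 20.2 CPM in macrophages, 17.3 CPM in monocytes and 17.9 CPM in T cells. The nucleoside transporter gene Slc29a1 was at 8.26 CPM in members, 31.6 CPM in macrophages, 17.7 CPM in monocytes and 21.5 CPM in T cells.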
